A study of Mus musculus with 24 samples.

Results

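Mitochondria make most of a cell's ATP by oxidative phosphorylation (OXPHOS). The report below follows the nuclear genes for the subunits of this machinery in sorted bone marrow stromal cultures of a mouse model of cherubism. Members were the protein-coding nuclear genes whose symbol begins with Ndufa, Ndufb, Ndufc, Ndufs, Ndufv, Uqcr, Cox4 to Cox8 or Atp5, or is Sdha, Sdhb, Sdhc, Sdhd or Cyc1, without the Ndufaf assembly factors. The rule found 87 of the 54232 gene identifiers in the count files. By name, 38 belong to complex I, 4 to complex II, 9 to complex III, 18 to complex IV and 18 to complex V.

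Complex I (NADH dehydrogenase) and complex II (succinate dehydrogenase, which is also an enzyme of the tricarboxylic acid cycle) feed electrons through ubiquinone to complex III and cytochrome c, and complex IV passes them to oxygen. Complexes I, III and IV pump protons, and complex V, the ATP synthase, uses the proton gradient to make ATP. Most subunits are encoded in the nucleus and imported, while a small set is encoded in mitochondrial DNA; complex II is wholly nuclear. Osteoclasts, the bone-resorbing cells of the hematopoietic lineage, are rich in mitochondria.

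All animals were female C57BL/6 mice of 6 to 8 weeks. Bone marrow was cultured for 7 days and then sorted into a CD45+Sca1+ population, called hematopoietic, and a CD45-Sca1+ population, called mesenchymal. The mice were wild type (WT) or homozygous for a knock-in allele of Sh3bp2 (Sh3bp2KI/KI, labelled CBM, here knock-in), the gene of an adaptor protein that is mutated in human cherubism. Each of the 4 groups had 6 libraries, 24 in all; no label says whether the 6 came from separate mice or cultures, so p-values measure the spread between these libraries, which may be technical.

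The libraries held 9875390 to 15826711 counted reads, and no libraries of a group agreed within sampling noise. The names of the deposited files begin with a prefix, 1 or 2, that splits every group into replicates 1 to 3 and 4 to 6; what it marks is not stated, and it entered every fit as a covariate. In the sort check, the summed level of 16 leukocyte markers was 12540 to 27620 CPM (reads scaled to each library's depth by the TMM method) in hematopoietic libraries and 32.2 to 147 CPM in mesenchymal ones. For 22 stromal markers it was 2344 to 14740 CPM in hematopoietic and 35200 to 75660 CPM in mesenchymal libraries, so stromal RNA was present in the hematopoietic sort. Itgam is listed at 0 in all libraries. Gene counts do not show which Sh3bp2 allele a library carries.

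Of the 87 members, 79 had reads in all 24 libraries and 4 (Ndufa13, Cox4i1, Cox8b and Cox8c) are listed at 0 in every library. Ndufa13 and Cox4i1 encode subunits that most cells use, and Rpl13, a ribosomal protein gene, is likewise listed at 0, so the 0 is given only as the listed value. In 31 members, exon bases are shared with another gene, on the opposite strand in 27 and on the same strand in 6. Whether the counting used strand was not stated, which leaves these counts uncertain; they include Ndufs1 (with Ino80dos), Atp5j (with Gabpa), Uqcrc2 (with Pdzd9) and Ndufb5 (with Mrpl47). The annotation holds 2 overlapping gene models named Atp5o; the second, which also overlaps Donson, is written Atp5o-model2 here. Ndufa4 stands under complex I by its name, although its protein is known as a complex IV subunit.

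The sequences before the transcription start are shown because these genes are known to share motifs there. RefSeq promoter windows of the GRCm38.p6 build, 250 bases before to 50 after the start, matched 67 members by symbol, and 4 motifs were searched on both strands. GCGCANGCG, a core of the nuclear respiratory factor 1 motif, was in the windows of 20 members (29.9%) and of 7.03% of all 27025 genes in the table. CCGGAAG, a core bound by ETS factors such as GA-binding protein, was in 16 members (23.9%) and 9.93% of all genes. AAGATGGC, a YY1 core, was in 9 members (13.4%) and 3.19% of all genes, and AAGGTCA, an estrogen-related receptor core, in 8 members (11.9%) and 5.38% of all genes. At least 1 of the 4 was in 38 members (56.7%) and in 22.4% of all genes. Of members with a window, 23 were called higher in knock-in hematopoietic libraries by the test below, and 40 were tested and not called. At least 1 motif was in 60.9% and 57.5% of these. GCGCANGCG was in 34.8% and 27.5%, CCGGAAG in 30.4% and 20%, AAGGTCA in 13% and 10% and AAGATGGC in 4.35% and 20%. These shares were not tested against each other. Matches of CCGGAAG and AAGATGGC can share their AAG, and base composition was not matched between the sets.

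The capitals below mark the motif as it reads on the gene's own strand, 5′ to 3′; all are from genes that were higher in knock-in hematopoietic libraries. The first lines give a match to GCGCANGCG with 8 bases on each side: for Sdhd (chr9:50603912-50603936, minus strand), Sdha (chr13:74350279-74350303, minus strand) and Ndufa8 (chr2:36049351-36049375, minus strand), starting 79, 55 and 29 bases before the RefSeq start. The window of Sdha held 3 such matches and that of Ndufa8 held 2. These short sites were not filtered for exons of other genes, and that of Sdhd lies beyond its exon-free stretch printed below.
Sdhd: gctggggtGCGCACGCGcggtggca
Sdha: ggcgtgttGCGCAGGCGcagaatct
Ndufa8: gagcagtgCGCTTGCGCgtcgctgg
The longer stretches lie directly before the start and meet no annotated exon. Those of Sdhd (chr9:50603850-50603909, minus strand, 60 bases) and Uqcrh (chr4:116075072-116075221, minus strand, 150 bases) hold CCGGAAG on the opposite strand. That of Atp5g3 (chr2:73911327-73911476, minus strand, 150 bases) holds AAGGTCA on the opposite strand.
Sdhd: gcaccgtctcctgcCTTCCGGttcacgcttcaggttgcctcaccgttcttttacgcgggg
Uqcrh: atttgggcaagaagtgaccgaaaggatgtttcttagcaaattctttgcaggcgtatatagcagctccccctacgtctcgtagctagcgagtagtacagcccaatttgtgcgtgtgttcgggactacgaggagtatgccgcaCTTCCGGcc
Atp5g3: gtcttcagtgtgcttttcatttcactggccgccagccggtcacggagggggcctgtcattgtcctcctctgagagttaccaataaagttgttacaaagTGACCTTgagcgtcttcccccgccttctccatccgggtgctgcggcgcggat

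Levels per kilobase of the principal transcript (mean CPM per kb over the 24 libraries) spanned a wide range. The ATP synthase catalytic core led, with 240.4 for Atp5b (the F1 beta subunit), 131 for Atp5a1 (F1 alpha) and 97.7 for Atp5c1 (F1 gamma); Atp5k, a small subunit of the membrane part, was lowest in complex V at 2.11. In complex II, Sdhb, the iron-sulfur subunit, was highest at 65.5 and Sdhc, a membrane anchor, lowest at 14.5. In complex III, Uqcrc1, a core protein, stood at 53.1 and Uqcrq, a small subunit, at 9.30. In complex I, Ndufs4, an accessory subunit near the NADH-oxidizing arm, was highest at 55.3, and in complex IV, Cox8a, a small subunit, was highest at 76.3. Apart from the genes listed at 0, the lowest per kb were Ndufb2 in complex I at 0.881 and Cox7b2, a paralog of Cox7b, in complex IV at 0.0676. These ranks depend on the annotated length, which was 4371 bases for Ndufb2, 3171 for Sdhc and 1521 for Uqcrq. Before division by length these genes were not the lowest. Ndufb2 stood at 3.85 CPM (Ndufa4l2 2.76), Sdhc at 46.0 CPM (Sdhd 44.3) and Uqcrq at 14.2 CPM (Uqcr11 8.95).

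Knock-in hematopoietic libraries held more RNA of the nuclear OXPHOS genes than wild-type ones. The summed level of all members was 2423 to 3334 CPM in WT (2844 ± 351, SD, n = 6) and 3186 to 4220 CPM in knock-in (3753 ± 350, SD, n = 6). The groups overlapped in this sum. Complex III showed no overlap, at 230.1 to 329 CPM in WT and 334 to 465 CPM in knock-in. Complex II stood at 297 ± 41.6 CPM (SD, n = 6) in WT and 419 ± 39.7 CPM (SD, n = 6) in knock-in, complex V at 1084 ± 161 and 1479 ± 180 CPM, complex I at 882 ± 84.6 and 1071 ± 73.2 CPM and complex IV at 307 ± 37.0 and 372 ± 25.7 CPM (all SD, n = 6).

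**Figure D1:**
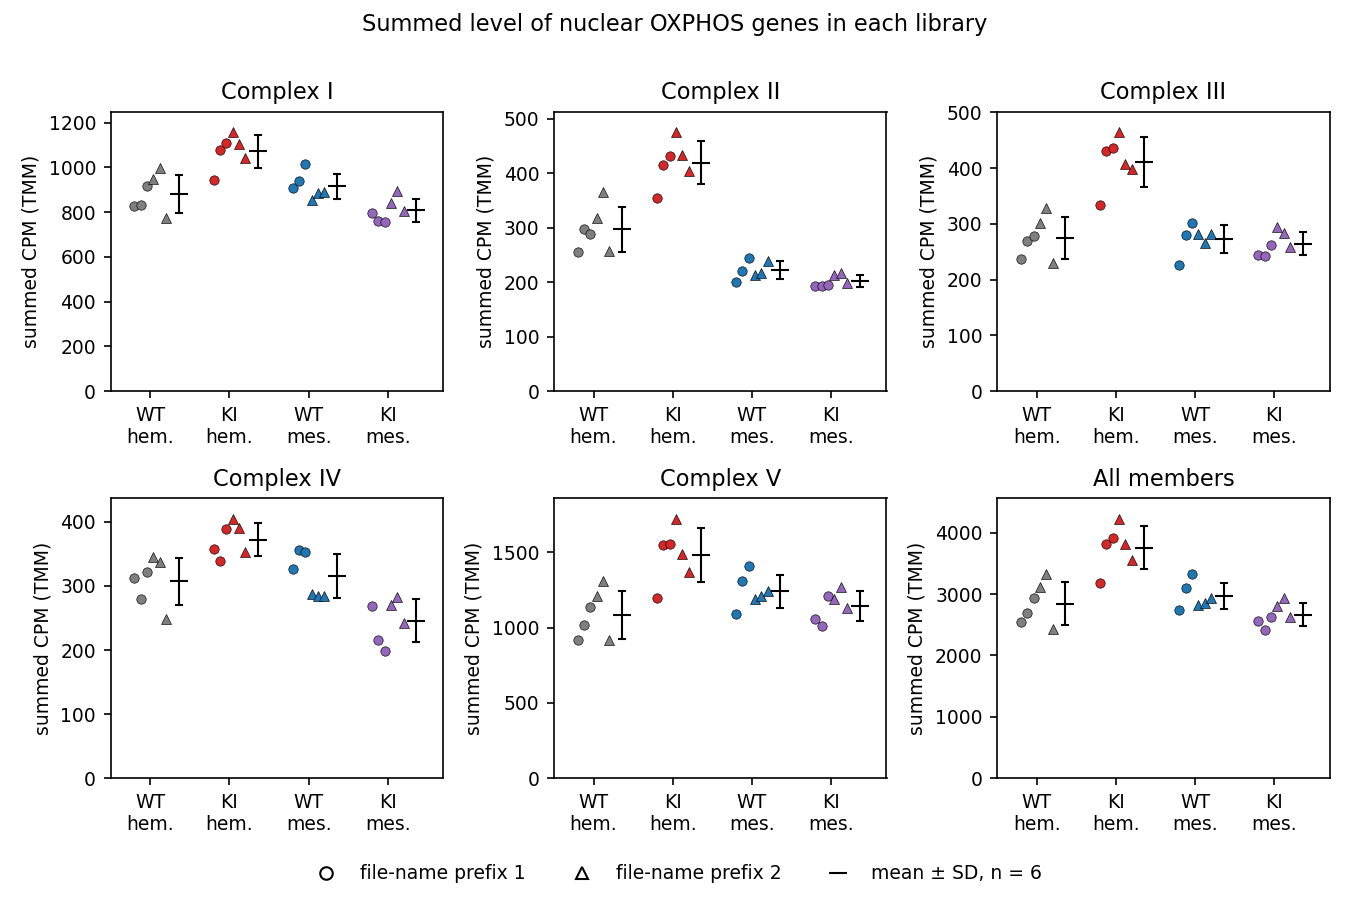
Summed CPM of the nuclear OXPHOS genes of each complex, and of all members, on the y axis for each library of the 4 groups (WT, wild type; KI, knock-in, labelled CBM; hem., hematopoietic; mes., mesenchymal). Circles are libraries of file-name prefix 1, triangles those of prefix 2, and bars the mean ± SD of 6 libraries; for all members the knock-in hematopoietic mean is 3753 CPM and the other means lie between 2663 and 2965 CPM.

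By gene, 78 members passed the filter on low counts in this comparison; 30 were called higher and 0 lower by edgeR (adjusted p under 0.05). Over all 14030 genes tested, 9.01% were called higher and 6.89% lower. The members' median log2 fold change was 0.30, against -0.00 over all genes, and 71 of 78 were positive. At an unadjusted p under 0.05 there were 44 members, a count given without the share of all genes at that threshold. The calls were 4 of 4 tested in complex II, 6 of 9 in complex III, 8 of 17 in complex V, 9 of 36 in complex I and 3 of 12 in complex IV. In 15 of 78 members every knock-in library lay above every WT library, as in 4.61% of all genes tested. In a bulk sorted population, a change in the share of a cell type and a change in RNA per cell cannot be told apart.

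In complex II, Sdhb was 61.3, 73.1 and 88.8 CPM (lowest, median, highest) in WT and 97.1, 119 and 134 CPM in knock-in hematopoietic libraries. The groups did not overlap, and the log2 fold change was 0.68 (SE 0.10, edgeR adjusted p = 0.000639). Sdha, the flavoprotein that oxidizes succinate, stood at 104, 132 and 159 CPM in WT and 155, 173 and 193 CPM in knock-in, and rose by 0.46 on the log2 scale (SE 0.10, edgeR adjusted p = 0.00587). Its groups touched, with the highest WT library above the lowest knock-in library. Sdhd, a membrane anchor, rose by 0.59 on the log2 scale (SE 0.10, edgeR adjusted p = 0.00209). Sdhc, the other anchor, rose by 0.29 (SE 0.09, edgeR adjusted p = 0.0435), a call lost without any of 8 libraries (WT replicates 1, 2, 3, 4 and 6 and knock-in replicates 2, 3 and 4; adjusted p up to 0.0956).

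In complex III, Cyc1, the cytochrome c1 subunit that hands electrons to cytochrome c, was 16, 20.2 and 26.5 CPM in WT and 30.5, 40.2 and 47.1 CPM in knock-in. No library overlapped, and its log2 fold change of 0.93 (SE 0.14, edgeR adjusted p = 0.000714) was the highest of the members tested. Uqcrfs1, the Rieske iron-sulfur protein, was 41.0, 48.9 and 64.7 CPM in WT and 65.8, 95.7 and 109.9 CPM in knock-in, again without overlap (log2 fold change 0.89, SE 0.13, edgeR adjusted p = 0.000697). Uqcr10, a small subunit, was 12.6, 15.6 and 20.8 CPM in WT and 23.6, 26.3 and 30.4 CPM in knock-in, with every knock-in library higher (0.75, SE 0.12, edgeR adjusted p = 0.00101). Uqcrc1, a core protein, rose by 0.48 (SE 0.12, edgeR adjusted p = 0.0188).

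In complex I, Ndufv1, which binds NADH and the flavin, was 19.7, 27.4 and 33.0 CPM in WT and 39.3, 46.8 and 59.4 CPM in knock-in. Every knock-in library was above every WT library (log2 fold change 0.82, SE 0.14, edgeR adjusted p = 0.00143). Some subunits of the iron-sulfur chain and the quinone site were also called: Ndufs1 rose by 0.48 (SE 0.10, edgeR adjusted p = 0.00469) and Ndufs7 by 0.40 (SE 0.08, edgeR adjusted p = 0.00445). The groups did not overlap for either gene. Ndufb4, an accessory subunit singled out after its values were seen, did not overlap between groups either but was not called (0.27, SE 0.12, edgeR adjusted p = 0.152). Not all Ndufs genes were higher: Ndufs8 had means of 18.1 CPM in WT and 16.1 CPM in knock-in.

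In complex V, Atp5d, the F1 delta subunit, was 44.0, 47.6 and 59.8 CPM in WT and 61.8, 71.4 and 80.3 CPM in knock-in, without overlap (log2 fold change 0.57, SE 0.09, edgeR adjusted p = 0.00145). Of the 3 genes for the proton-carrying c ring, which encode the same mature protein, Atp5g3 rose by 0.70 (SE 0.12, edgeR adjusted p = 0.0016). Its libraries did not overlap, at 27.2, 30.5 and 39.2 CPM in WT and 42.4, 50.1 and 60.4 CPM in knock-in. Atp5g1 and Atp5g2 were not called, with 0.39 (SE 0.17, edgeR adjusted p = 0.153) and 0.20 (SE 0.09, edgeR adjusted p = 0.17). Atp5b, the catalytic F1 beta subunit and the most abundant member, was 261, 345 and 452 CPM in WT and 409, 536 and 633 CPM in knock-in (0.63, SE 0.14, edgeR adjusted p = 0.0089); the groups overlapped. Atp5c1 rose by 0.41 (SE 0.08, edgeR adjusted p = 0.00247). Atp5a1, the F1 alpha subunit, rose by 0.42 (SE 0.13, edgeR adjusted p = 0.0415), a call lost without any of 8 libraries (WT replicates 1, 2, 4 and 6 and knock-in replicates 2 to 5; adjusted p up to 0.099).

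Complex IV had 3 calls in the hematopoietic comparison. Cox6b1, a subunit on the outer face of the complex, rose by 0.39 (SE 0.08, edgeR adjusted p = 0.00645), Cox5a by 0.32 (SE 0.09, edgeR adjusted p = 0.0224) and Cox7b by 0.38 (SE 0.12, edgeR adjusted p = 0.0413). The call of Cox5a was lost without knock-in replicate 4 (adjusted p = 0.0536), and that of Cox7b without any of 9 libraries (WT replicates 1, 2, 3 and 6 and knock-in replicates 1 to 5; up to 0.0961). Cox5b was not called (0.31, SE 0.14, edgeR adjusted p = 0.166), nor were Cox8a (0.28, adjusted p = 0.131), Cox7a2 (0.45, adjusted p = 0.0582) and Cox6a1 (0.33, adjusted p = 0.261).

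Of the 30 calls, 23 were kept in each of the 12 fits that left out 1 library. Within prefix 1 alone, 3 libraries against 3, 10 members were called higher, with a median of 0.35. Of other coding genes, 359 of 11457 with a principal transcript of 1000 bases or more and 16 of 644 shorter ones were called higher there. Within prefix 2 alone 0 members were called, with 29 at an unadjusted p under 0.05 and a median of 0.26. There 145 of 11489 longer and 5 of 650 shorter other coding genes were called higher. The share of all genes at that unadjusted threshold is not reported here. A direct test of whether the genotype difference depended on the prefix, added after seeing the data, called 0 of 78 members and 0 of all 14030 genes. At an unadjusted p under 0.05 there was 1 member, Cox7a2l (1.28%, against 2.05% of all genes). Beside this rise, the summed level of 8 osteoclast markers was 92.9 to 1753 CPM in WT and 1885 to 5050 CPM in knock-in hematopoietic libraries, and 7 of the 8 were called higher (Dcstamp by 2.73, Ocstamp by 3.14 and Acp5 by 2.79 on the log2 scale). The leukocyte marker sum was 12540 to 20710 CPM in WT and 18420 to 27620 CPM in knock-in, with 2 of 15 genes called higher (Itgb2 and Lyz2) and 5 lower (Adgre1, Cd53, Fcer1g, Coro1a and Laptm5). The stromal marker sum was 2634 to 13430 and 2344 to 14740 CPM, with 0 of 21 genes called and 0 at an unadjusted p under 0.05. B lineage markers summed to 4.55 to 52.1 CPM in WT and 2.52 to 13.7 CPM in knock-in, with 1 of 5 (Cd79a) called lower, and 1 of 4 endothelial markers (Vwf) was called higher. Beside these marker calls, 9.01% of all genes were called higher and 6.89% lower. The 2 of 15 leukocyte markers called higher are a share near that of all genes, and the B lineage and endothelial calls are 1 gene each. The part of these cell types in the result was not tested.

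**Figure D2:**
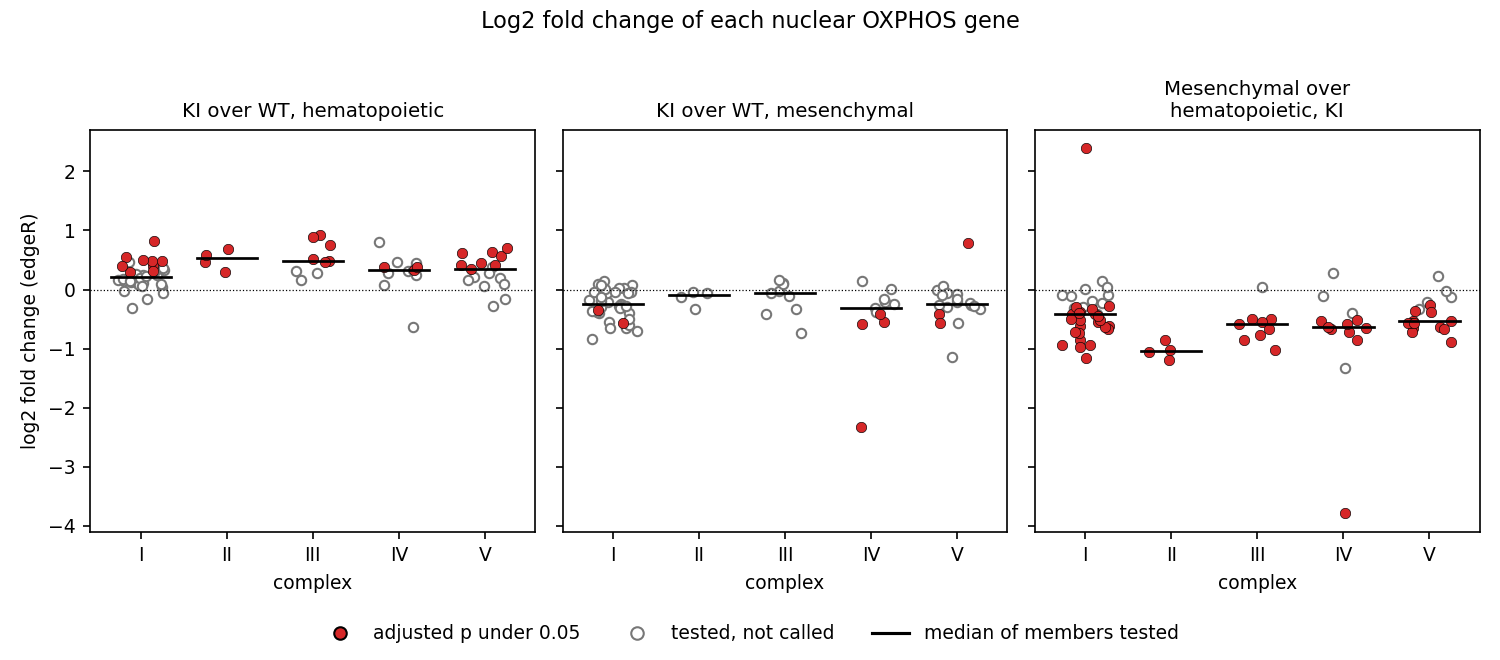
Log2 fold change (edgeR, y axis) of every member tested, by complex (x axis), for knock-in over WT in hematopoietic and in mesenchymal libraries and for mesenchymal over hematopoietic in knock-in libraries. Filled points passed the test (30, 9 and 58 of the members in the 3 panels), open points did not, and lines are medians per complex; complex II has medians of 0.53, -0.10 and -1.04.

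Partner genes of the complexes were taken from pathway lists. Tricarboxylic acid cycle enzymes, which supply NADH and succinate, had 14 of 19 called higher and 0 lower in knock-in hematopoietic libraries, beside 9.01% called higher over all genes, with a median of 0.40. In every fit without 1 library 9 of the 14 were kept; Dld, Idh3a, Ogdh, Pdhx and Suclg1 were lost in 1 to 8 of the 12 fits. Mdh2, malate dehydrogenase, rose by 0.81 (SE 0.14, edgeR adjusted p = 0.00172) and Cs, citrate synthase, by 0.53 (SE 0.10, edgeR adjusted p = 0.0042). Electron carriers and entry enzymes had 3 of 14 called higher, beside the same 9.01%: Etfdh by 0.49, Coq9 by 0.38 and Cycs, cytochrome c, by 0.53. The call of Cycs was lost without WT replicate 1 (adjusted p = 0.0518). Assembly factors, which build the complexes but are not part of them, had 6 of 46 called higher, beside 9.01% of all genes. Ndufaf1 led at 0.71 (SE 0.16, edgeR adjusted p = 0.00917). Only Ndufaf1 was kept in every fit without 1 library; Cox11, Cox15, Ndufaf4, Sdhaf2 and Ttc19 were lost in 2 to 8 of the 12. Among 20 regulators of mitochondrial biogenesis 2 were called higher, a share near the 9.01% of all genes: Ppargc1b, the coactivator PGC-1 beta, by 1.76 (SE 0.15, edgeR adjusted p = 2.32e-05) and Esrra, an estrogen-related receptor, by 0.39 (SE 0.10, edgeR adjusted p = 0.0215). The call of Esrra was lost without WT replicate 1 or knock-in replicate 2 (adjusted p = 0.0504 and 0.059).

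Of the subunits encoded in mitochondrial DNA, 0 of 7 tested were called in either population by edgeR, with 1 at an unadjusted p under 0.05 in hematopoietic and 4 in mesenchymal libraries. Their summed level was 6303 ± 956 CPM in WT and 6936 ± 765 CPM in knock-in hematopoietic libraries, and 5702 ± 1147 and 4927 ± 714 CPM in mesenchymal ones (SD, n = 6). By gene, 2 of the 7 were positive in hematopoietic libraries, with a median log2 fold change of -0.19. mt-Co1, the catalytic core of complex IV and the most abundant of them, had means of 3641 CPM in WT and 4469 CPM in knock-in and a log2 fold change of 0.31 (SE 0.10, edgeR adjusted p = 0.0521) in hematopoietic libraries.

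In mesenchymal libraries fewer members were called, most of them lower in knock-in. The summed level of all members was 2747 to 3320 CPM in WT (2965 ± 212.3, SD, n = 6) and 2419 to 2942 CPM in knock-in (2663 ± 186, SD, n = 6), with overlap. Complex IV did not overlap, at 284 to 356 CPM in WT and 199 to 282 CPM in knock-in. Of 79 members tested, 8 were called lower and 1 higher by edgeR. Over all 13867 genes tested, 3.83% were called lower and 3.44% higher. The median was -0.22, against 0.00 over all genes, and 65 members were negative. The lower calls were 4 in complex IV, 2 in complex I, 2 in complex V and 0 in complexes II and III. Groups did not overlap for 3 lower members, Cox4i2, Cox5b and the uncalled Sdhc (-0.34, SE 0.10, edgeR adjusted p = 0.052), as in 2.08% of all genes tested.

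The most changed member was Cox4i2, the isoform of complex IV subunit 4 known for its induction at low oxygen. It was 1.34, 1.79 and 2.91 CPM in WT mesenchymal libraries and 0.0879, 0.345 and 0.597 CPM in knock-in ones, from 156 and 29 reads in all. The groups did not overlap, and it fell by 2.32 on the log2 scale (SE 0.37, edgeR adjusted p = 0.00228). In hematopoietic libraries its medians were 0.305 CPM in WT and 0.277 CPM in knock-in, from 21 and 23 reads, too few for the test. Of 3 adipocyte markers tested in mesenchymal libraries, Adipoq and Fabp4 were called lower in knock-in, beside 3.83% of all genes. The third, Lipe, was not called (0.33, SE 0.23, edgeR adjusted p = 0.441). The sum of 6 adipocyte markers was 10.8 to 25.6 CPM in WT and 3.58 to 7.59 CPM in knock-in. Of 4 osteoclast markers tested there, 3 (Mmp9, Atp6v0d2 and Acp5) were called higher in knock-in, beside 3.44% of all genes. Their sums were 41.9 to 79.0 CPM in WT and 58.6 to 204 CPM in knock-in, taken over all 8 osteoclast markers. Of the other marker lists, leukocyte markers had 0 of 12 called, endothelial markers 0 of 5 and stromal markers 1 of 22, higher in knock-in. The part of any of these cell types in the result was not tested.

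Cox5b, a zinc-binding subunit, was 34.0, 40.4 and 47.9 CPM in WT and 21.9, 26.4 and 32.8 CPM in knock-in mesenchymal libraries. No library overlapped (log2 fold change -0.58, SE 0.13, edgeR adjusted p = 0.0132). Cox6c fell by 0.55 (SE 0.14, edgeR adjusted p = 0.033), Cox8a by 0.41 (SE 0.12, edgeR adjusted p = 0.0448), Ndufv3 by 0.57 (SE 0.15, edgeR adjusted p = 0.0375), Ndufs4 by 0.35 (SE 0.09, edgeR adjusted p = 0.0318), Atp5j by 0.57 (SE 0.15, edgeR adjusted p = 0.0358) and Atp5e by 0.41 (SE 0.11, edgeR adjusted p = 0.0412); in all 6 the groups overlapped. The genes that rose most in hematopoietic libraries were not called here: Cyc1 had 0.11 (SE 0.11, edgeR adjusted p = 0.602), Uqcrfs1 0.16 (SE 0.10, edgeR adjusted p = 0.367) and Ndufv1 0.08 (edgeR adjusted p = 0.693). Atp5o-model2 rose by 0.79 (SE 0.16, edgeR adjusted p = 0.00856) while the other model, Atp5o, had -0.27 (SE 0.17, edgeR adjusted p = 0.367). These models share a locus and their reads may be split between them, so both values are uncertain.

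**Figure D3:**
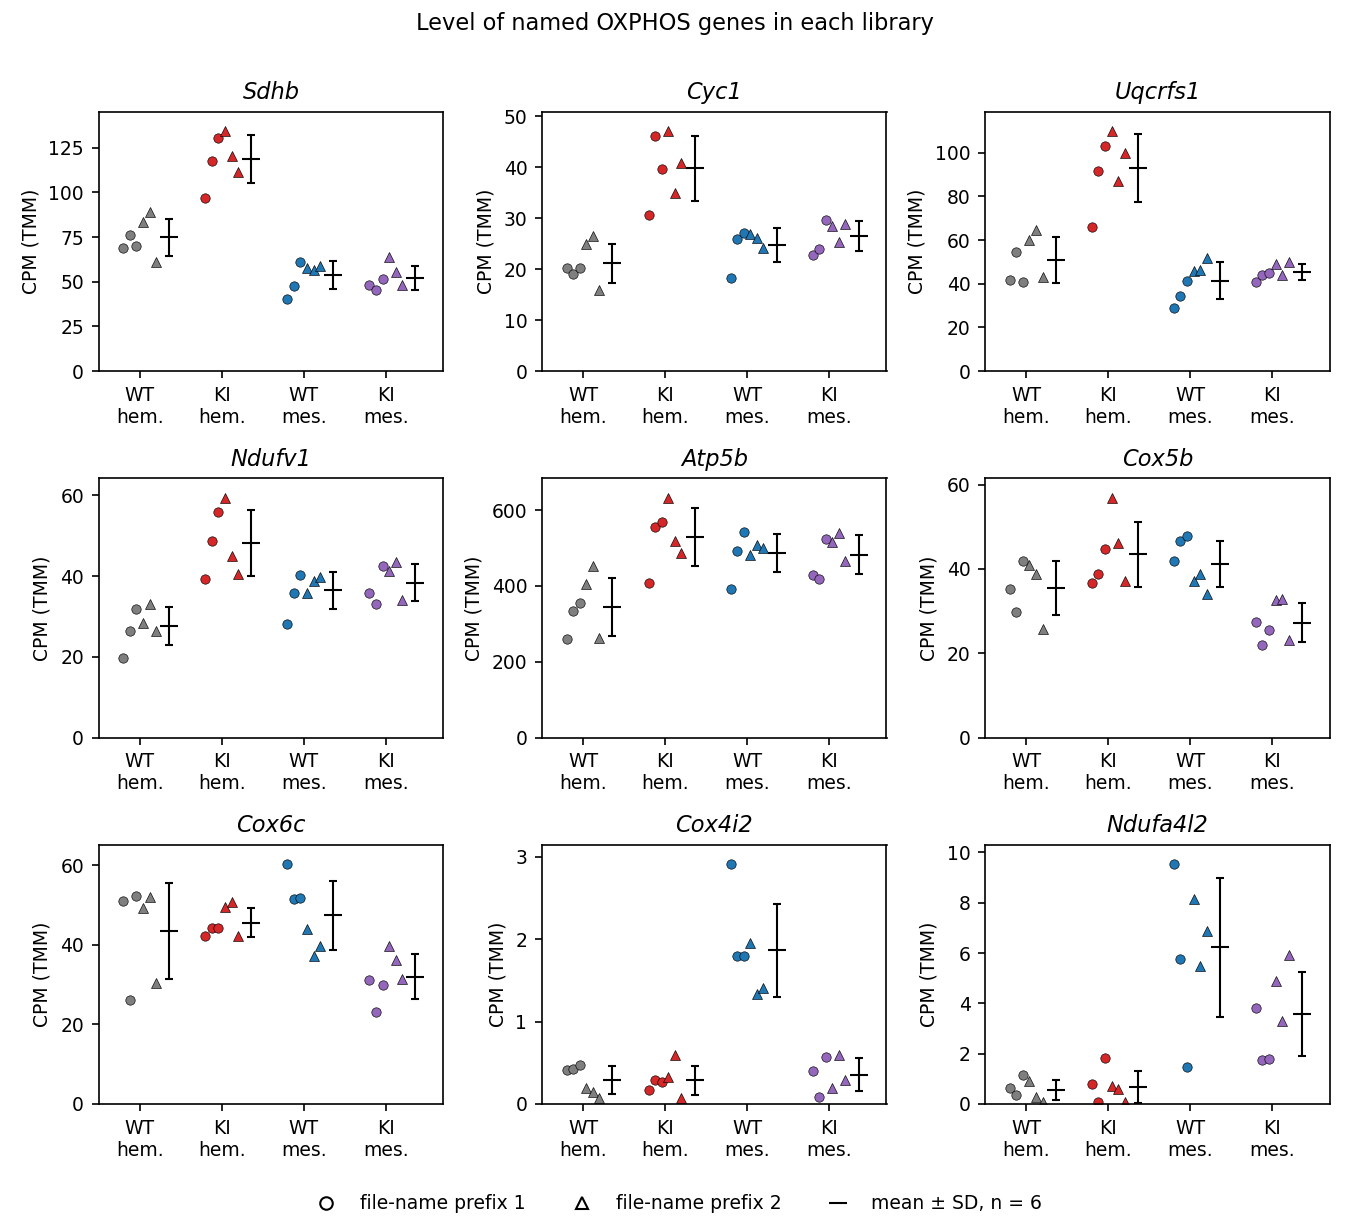
CPM (TMM, y axis from 0) of 9 members in each of the 24 libraries (groups on the x axis as labelled; KI, knock-in; circles prefix 1, triangles prefix 2; bars mean ± SD, n = 6). By mean, Sdhb, Cyc1, Uqcrfs1 and Ndufv1 are highest in knock-in hematopoietic libraries. For Ndufv1, whose lowest knock-in hematopoietic library is at 39.3 CPM, several mesenchymal libraries reach into that range (up to 40.2 CPM in WT and 43.4 CPM in knock-in). Cox5b and Cox6c are lowest in knock-in mesenchymal libraries by mean (27.2 and 32.0 CPM), and Cox4i2 is above 1.3 CPM only in the WT mesenchymal libraries.

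The mesenchymal calls rested on few libraries. Only 2 of the 8 lower calls, Cox4i2 and Cox5b, and the call of Atp5o-model2 were kept in every fit without 1 library. The count of lower calls was 2 to 5 without knock-in replicate 1 (2), 2 (4), 3 (3) or 4 (5) or without WT replicate 1 (4), 2 (2), 3 (4) or 6 (5), and it was 12 without knock-in replicate 5. It was 13 in a fit of all 24 libraries and 16 by DESeq2. Within prefix 1 alone 12 members were called lower, with a median of -0.35. Of other coding genes, 192 of 11467 with a principal transcript of 1000 bases or more and 39 of 606 shorter ones were called lower there. Within prefix 2 alone 0 members were called, with 6 at an unadjusted p under 0.05 and a median of -0.05. There 53 of 11590 longer and 0 of 631 shorter other coding genes were called lower. The genotype difference itself depended on the prefix for 2 of 79 members, Atp5h and Ndufa2, by a test added after seeing the data (differences of 1.07 and 1.48 on the log2 scale, prefix 2 minus prefix 1; edgeR adjusted p = 0.0379 and 0.0498). Over all genes 0.0721% were called for this term, and 29.1% of members against 5.89% of all genes had an unadjusted p under 0.05.

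**Figure D4:**
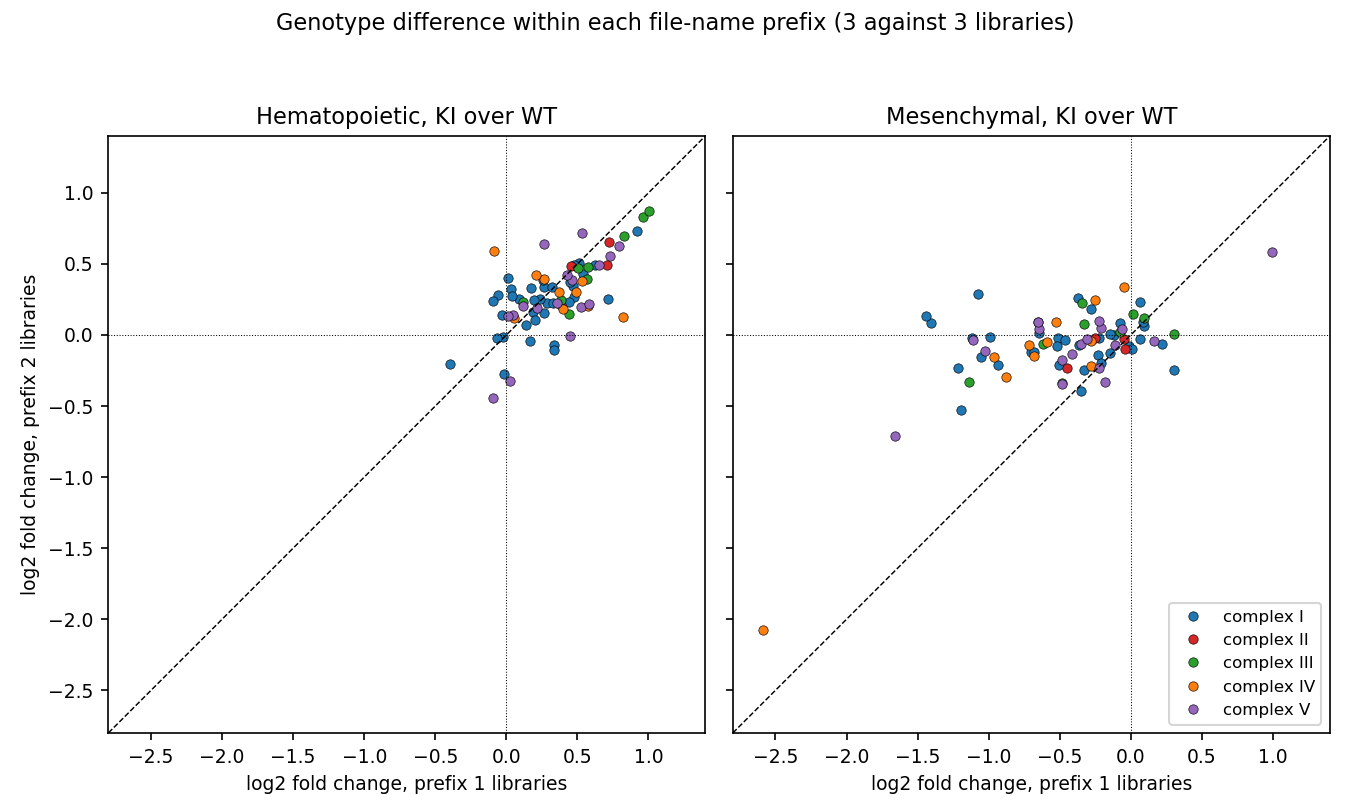
Log2 fold change of knock-in over WT for each member within the libraries of prefix 1 (x axis) and of prefix 2 (y axis), 3 against 3 libraries in each, coloured by complex, with the line of equal values dashed. Hematopoietic members lie near the line (medians 0.35 and 0.26), while mesenchymal members spread to the left along the x axis (medians -0.35 and -0.05).

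Transcript length moved with the mesenchymal difference. Members with a principal transcript under 1000 bases had a median of -0.31 (46 tested) and longer members -0.07 (33 tested), and other coding genes under 1000 bases had -0.16 (610 tested) against 0.01 for longer ones. In prefix 1 these medians were -0.56 and -0.18 for members and -0.28 and 0.01 for other coding genes; in prefix 2 they were -0.07 and -0.03 for members and -0.02 and 0.01 for others. In hematopoietic libraries the shorter members had the lower median, 0.24 against 0.39, and other coding genes stood at -0.02 and -0.01. The part of transcript length in the result was not tested.

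The genotype difference was then compared between the populations. In a fit of all 24 libraries, the mesenchymal difference minus the hematopoietic one was negative for 79 of 81 members, with a median of -0.53 against 0.00 over all genes. It was called for 31 members below 0 and 1 above 0 by edgeR. Over all 15389 genes tested, 4.36% were called below 0 and 2.92% above 0. The calls below 0 were 4 of 4 in complex II, 5 of 9 in complex III, 5 of 13 in complex IV, 9 of 18 in complex V and 8 of 37 in complex I. Uqcrh, the hinge protein of complex III, had the smallest adjusted p (-0.87, SE 0.15, edgeR adjusted p = 0.0006). Its medians were 19.8 and 27 CPM in WT and knock-in hematopoietic libraries and 24 and 18 CPM in mesenchymal ones. Cox6b1 (-0.63, SE 0.11, edgeR adjusted p = 0.000744), Atp5g3 (-0.92, SE 0.18, edgeR adjusted p = 0.00189), Sdhd (-0.65, SE 0.13, edgeR adjusted p = 0.00263) and Ndufb5 (-0.83, SE 0.18, edgeR adjusted p = 0.00408) followed in their complexes, the last being an accessory subunit of complex I. Within prefix 1 alone 5 members were called below 0 (Cox5b, Cox7b, Cox8a, Atp5h and Atp5j) and within prefix 2 alone 0, with 27 at an unadjusted p under 0.05 and medians of -0.72 and -0.34. The shares of all genes in these prefix fits are not reported here.

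Among partner genes, 11 of 19 tricarboxylic acid cycle enzymes were called below 0 in the same test, beside 4.36% of all genes, and 5 of the 11 were kept in every fit without 1 library. Dld, Dlst, Pdha1 and Sucla2 were lost in 15 to 19 of 24 fits, Pcx in 3 and Idh2 in 1. The calls of smallest adjusted p that are named here included Suclg1, a succinyl-CoA ligase subunit, at -0.55 (SE 0.12, edgeR adjusted p = 0.00614) and Mdh2 at -0.75 (SE 0.17, edgeR adjusted p = 0.00692). Ppargc1b stood at -1.97 (SE 0.27, edgeR adjusted p = 6.43e-05), and Gabpb1, a subunit of GA-binding protein, was called above 0 at 0.40 (edgeR adjusted p = 0.0478), a call lost in 17 of 24 fits without 1 library. These were the only calls among 20 regulators of mitochondrial biogenesis, 1 below and 1 above 0. That is near the shares of all genes (4.36% and 2.92%). Of 47 assembly factors only Ndufaf1 was called (-0.79, edgeR adjusted p = 0.0102), a share below the 4.36% of all genes.

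The populations were then compared within each genotype. Both comparisons share libraries with those above, and the values are given side by side. In WT, mesenchymal over hematopoietic, 13 of 81 members were called higher and 13 lower (16% each), with a median of 0.03. Over all genes 35.4% were called higher and 38% lower. Complex II was lower throughout, 4 of 4, from -0.24 for Sdhc to -0.48 for Sdhb (SE 0.10, edgeR adjusted p = 0.000188). Cox5a was also lower, at 24, 27.2 and 29.3 CPM in hematopoietic and 11.8, 16.3 and 21.1 CPM in mesenchymal WT libraries (-0.68, SE 0.12, edgeR adjusted p = 1.53e-05), with no overlap.

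The largest rises among members in WT were those of Ndufa4l2 and Cox4i2. Ndufa4l2, a paralog of Ndufa4, was 0.0747, 0.485 and 1.14 CPM in WT hematopoietic and 1.48, 6.33 and 9.54 CPM in WT mesenchymal libraries. The groups did not overlap (log2 fold change 3.47, SE 0.57, edgeR adjusted p = 1.02e-05). Cox4i2 was higher by 2.72 (SE 0.41, edgeR adjusted p = 2.7e-06), also without overlap. In knock-in libraries Ndufa4l2 was higher in mesenchymal libraries by 2.40 (SE 0.56, edgeR adjusted p = 0.000601) and Cox4i2 was not called (0.28, SE 0.46, edgeR adjusted p = 0.59). The difference between these genotypes was called for Cox4i2 (-2.43, SE 0.63, edgeR adjusted p = 0.0172) and not for Ndufa4l2 (-1.07, SE 0.81, edgeR adjusted p = 0.535); the call for Cox4i2 was lost without knock-in hematopoietic replicate 5 (adjusted p = 0.0507).

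In knock-in libraries, 57 of 81 members (70.4%) were called lower in mesenchymal than in hematopoietic libraries and 1, Ndufa4l2, higher. Over all genes 39.1% were called lower and 33.9% higher. The median was -0.53, and in 34 of 81 members every mesenchymal library lay below every hematopoietic one, as in 27.5% of all genes tested. Complex II had the lowest median: Sdhb was 97.1, 119 and 134 CPM in hematopoietic and 45.6, 49.9 and 63.9 CPM in mesenchymal knock-in libraries (-1.19, SE 0.10, edgeR adjusted p = 2.93e-10), and Sdha had -1.06 (SE 0.09, edgeR adjusted p = 3.91e-10). Uqcrfs1 had -1.03 (SE 0.12, edgeR adjusted p = 4e-08), Atp5c1 -0.65 (SE 0.07, edgeR adjusted p = 7.33e-09), Ndufs7 -0.93 (SE 0.10, edgeR adjusted p = 7.9e-09) and Cox6b1 -0.65 (SE 0.08, edgeR adjusted p = 7.74e-08), each without overlap. Not all members were called: Atp5b had -0.13 (SE 0.12, edgeR adjusted p = 0.326). The counts of lower calls within prefix 1 and within prefix 2 were 44 and 46. In WT the split between higher and lower calls was 21 and 7 in prefix 1 and 6 and 14 in prefix 2. Shares of all genes within a prefix are not reported here for either genotype.

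Tissue-type isoforms of complex IV were near the lower end of detection. Cox7a1, the muscle-type isoform of subunit 7a, held 103 reads in all over the 6 knock-in hematopoietic libraries and 7 over the 6 knock-in mesenchymal ones (-3.79, SE 0.78, edgeR adjusted p = 0.000143), while Cox7a2, the isoform of most tissues, had medians of 21.2 and 12.3 CPM. Cox6a2 held 8 to 33 reads per group and Cox7b2 0 to 6, and both were left out of the tests. Cox6b2, the testis-type isoform, was 0.595, 0.765 and 1.24 CPM in WT and 0, 0.683 and 0.777 CPM in knock-in hematopoietic libraries, without a call (-0.63, SE 0.45, edgeR adjusted p = 0.402). The widely expressed partners Cox6a1 and Cox6b1 had medians of 12.3 to 15.3 CPM and 25 to 40.3 CPM over the 4 groups.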

How the data were processed

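The authors deposited raw counts per Ensembl gene, 1 file per library, without normalization. The submitters' processing notes list HTSeq 0.9.1, DESeq2 1.20.0, FastQC 0.11.7 and MultiQC, and the builds GRCm38 and mm10; the counting's strand setting and annotation version were not stated. RNA was ribosome-depleted total RNA in stranded paired-end libraries, per the labels. Symbols and lengths came from GENCODE M21 (54165 of 54232 identifiers matched). The members and gene lists were chosen with earlier results of these data known.

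Counts were tested with edgeR 4.0.16 (R 4.3.3; filterByExpr with a minimum count of 10 and total of 15, TMM, robust quasi-likelihood fit, Benjamini-Hochberg over all genes tested, threshold 0.05), with the file-name prefix as covariate. Genotypes were compared within a population (12 libraries); populations, and the interaction, were fitted over all 24 libraries, as was the TMM scaling of the CPM. Total counts were 9875390 to 15826711 per library. Alternatives were DESeq2 1.42.0, other scalings, no filter, no prefix term, a replicate block, each prefix alone, a 24-library fit and leaving out each library. The scripts were tested on simulated data. Named genes were, in every comparison, paired isoforms and catalytic cores, the up to 3 called members of smallest adjusted p per complex and of largest change, and the up to 3 called genes per pathway list; some of these are not reported here. Printed sequences come from RefSeq: for each motif, the called members of smallest adjusted p with a match before the start.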

Additional observations from a re-analysis of the deposited data

Results flagged for a closer look

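In 4 of 124 groups of 6 values examined, 1 library stood apart from the other 5; chance gives about 1 in 20. These were the highest WT hematopoietic library for Cox6b2 (1.24 CPM), the highest knock-in mesenchymal library for Cox7a1 (0.398 CPM), and the lowest WT mesenchymal library for Ndufv1 (28.1 CPM) and for Cyc1 (18.3 CPM).

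The genotype difference differed between the populations, by the interaction test of edgeR, for 24 named members (mesenchymal minus hematopoietic difference, log2). In complex I these were Ndufb5 (-0.83), Ndufs1 (-0.52), Ndufv1 (-0.73) and Ndufa4 (-0.84). In complex II they were Sdha (-0.59), Sdhb (-0.71), Sdhc (-0.62) and Sdhd (-0.65). In complex III they were Uqcrh (-0.87), Cyc1 (-0.81), Uqcr10 (-0.86), Uqcrfs1 (-0.72) and Uqcr11 (-1.02). In complex IV they were Cox6b1 (-0.63), Cox5b (-0.89), Cox7b (-0.77), Cox8a (-0.70) and Cox4i2 (-2.43). In complex V they were Atp5g3 (-0.92), Atp5c1 (-0.48), Atp5o (-0.89), Atp5b (-0.63), Atp5a1 (-0.62) and, with the other sign, Atp5o-model2 (1.04).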

How the results depend on the processing

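Among the named members, no called value reversed its direction. Uncalled members did change sign: in mesenchymal libraries 14 members were positive in the full fit and 27 in prefix 2 alone. In hematopoietic libraries, the 30 members called higher became 10 in prefix 1 alone and 0 in prefix 2 alone, where 3 libraries faced 3, and 23 to 30 with 1 library left out. In mesenchymal libraries, the 8 called lower became 13 in the 24-library fit, 16 by DESeq2, 12 in prefix 1, 0 in prefix 2, 12 with total counts only, 11 without the filter, 5 without the prefix term and 2 to 12 with 1 library left out; the 1 called higher became 0 in each prefix alone. In the interaction, 31 called below 0 became 5 and 0 in prefixes 1 and 2 (25 to 36 with 1 library left out), and the 1 above 0 became 0 in both. In WT, 13 higher and 13 lower became 21 and 7 in prefix 1, and 6 and 14 in prefix 2. In knock-in, the 1 called higher became 0 and 2. Each prefix alone has fewer libraries than the full fits, and the prefixes differed from each other at the same number of libraries. The cause of these differences was not tested.

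Same-numbered libraries did not all deviate together: correlations of their deviations from the group means over 0.1 were found in 5 of 6 hematopoietic pairs (0.0899 to 0.445) and 4 of 6 mesenchymal pairs (-0.0394 to 0.336). Between hematopoietic and mesenchymal libraries, they were found in 2 of 6 WT pairs (-0.134 to 0.359) and 4 of 6 knock-in pairs (-0.0247 to 0.302). Libraries of unlike number were not compared, so these values cannot decide whether the libraries are paired. The main fits did not use the numbers to pair libraries. Whether same-numbered libraries share a source is not stated in the labels. With the replicate block, the counts were 36 higher in hematopoietic libraries, 1 higher and 6 lower in mesenchymal ones, 1 above and 37 below 0 in the interaction, 13 and 14 in WT and 1 and 58 in knock-in. Low counts limit Cox4i2, Cox7a1, Cox6a2, Cox6b2 and Cox7b2.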

Other observations

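Of the 13 subunits encoded in mitochondrial DNA, 7 held 11540 (mt-Nd6) to 1133461 (mt-Co1) reads over the 24 libraries. The other genes, mt-Co2, mt-Co3, mt-Atp6, mt-Atp8, mt-Nd3 and mt-Nd4l, held 0 to 6 reads each. mt-Rnr2, the large mitochondrial ribosomal RNA, held 14845193 reads.

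Cytosolic ribosomal protein genes, compared after seeing the data, had 70 of 79 members called higher in mesenchymal than in hematopoietic WT libraries (median 0.53) and 59 in knock-in libraries (median 0.46). Over all genes 35.4% were called higher and 38% lower in WT, and 33.9% and 39.1% in knock-in libraries. Mitochondrial ribosomal protein genes had 12 of 73 called higher and 10 lower in WT (median 0.03), and 3 higher and 26 lower in knock-in libraries (median -0.18); each of these shares is below or, for genes lower in knock-in (35.6%), near that of all genes.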
